A study of Oryza sativa Japonica Group with 8 samples.

Results

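Many rice genes give rise to more than one annotated transcript, and the share of a gene's RNA that each transcript takes was followed here in leaves with altered OsGRP3. The members were transcripts of genes with 2 or more annotated transcripts whose summed level reached 1 FPKM (fragment counts scaled to transcript length and library size) in every library, so they were chosen by measured gene level. The rule kept 10027 transcripts of 4366 genes. The annotation held 11917 transcripts of 5246 such genes, and 44540 transcripts of 37869 genes in all, and 880 multi-transcript genes were left out because they were under 1 FPKM in at least 1 library. The division of a gene's RNA among its transcripts played no part in the choice. Just inside the threshold, the lowest library was at 1.00 FPKM for Os01g0736400 and for Os06g0681600 and at 1.01 FPKM for Os03g0416200. Just outside it, the lowest library was at 0.996 FPKM for Os03g0253600, 0.985 FPKM for Os01g0650000 and 0.984 FPKM for Os05g0134400.

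RNA was sequenced from leaves of 4-week-old, soil-grown rice plants that received no stress treatment, with 2 libraries in each of 4 groups. OsGRP3 OX plants were cv. Nakdong carrying the OsGRP3 coding sequence behind the OsCc1 promoter. OsGRP3 KD plants were cv. Dongjin carrying an RNA interference construct, an inverted repeat of an OsGRP3 3′ UTR fragment behind the OsGOS2 promoter. Non-transgenic (NT) Dongjin and NT Nakdong plants served as the controls of the KD and OX plants. The paper selected independent homozygous single-copy lines for each construct. Which of them was sequenced, and whether both libraries of a group came from the same line, is not stated in the sources used here. Since the labels do not say that the libraries of a group came from separate plants, all p-values measure only the spread between these libraries. The libraries held 25836946 to 38940899 estimated read counts.

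A pre-mRNA can yield several mature RNAs through alternative promoters, splice sites, retained introns or ends, and these can differ in the protein they encode or in their stability. In plants a retained intron is the most common form of alternative splicing. Glycine-rich RNA-binding proteins carry an RNA recognition motif and a glycine-rich tail, and their Arabidopsis relatives AtGRP7 and AtGRP8 bind transcripts, including their own, and shift splice site choice.

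The sequences that define the transgenes are shown first because they fix which parts of OsGRP3 the transgenes cover. The primers of the overexpression construct span the coding sequence from its start codon to its stop codon. The forward primer of the silencing fragment begins inside the coding sequence and shares its first 17 bases with the end of that sequence. Each primer is written 5′ to 3′, and capitals mark the start codon, the stop codon or, in the reverse primer, the complement of the stop codon.
overexpression forward: caccATGgcggcgccggatgtcga
overexpression reverse: TCAgttcctccagttcccgc
silencing forward: ggaactggaggaacTGAttg
silencing reverse: ggtaacatcacggacgaaga

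OsGRP3 (Os03g0670700, chromosome 3, plus strand, IRGSP-1.0 coordinates) has 4 annotated transcripts that differ in their second intron. All 4 share a first intron of 247 bases at chr3:26460269-26460515. Os03t0670700-04 then removes 75 bases (chr3:26460774-26460848), Os03t0670700-01 removes 58 bases (chr3:26460784-26460841) and Os03t0670700-03 removes 134 bases (chr3:26460666-26460799). Os03t0670700-02 has no second intron and so retains this sequence. Within the parts that the transgenes cover, their reads map to the same exons and cannot be told apart from those of the endogenous gene. The paper amplified the overexpressed coding sequence from RNA, and the part of its spliced form in the OX shares of OsGRP3 was not tested.

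The summed level of OsGRP3 was 1819.6 and 2421 FPKM in OsGRP3 OX leaves, against 1542 and 1468 FPKM in NT Nakdong leaves. It was 441 and 389 FPKM in OsGRP3 KD leaves, against 517 and 512 FPKM in NT Dongjin leaves. The OX libraries were thus the higher pair in Nakdong and the KD libraries the lower pair in Dongjin, without overlap, and no test of the gene level was run. By this sum the reduction in KD leaves was small. The paper reports a far larger loss of OsGRP3 RNA in its knockdown plants and a larger gain in its overexpressing plants, by sequencing and by PCR. The cause of this gap was not tested. The fully spliced Os03t0670700-04 was the main transcript in every library. Its share was 73.8 and 77.0% in OX, 63.2 and 60.2% in KD, 78.1 and 68.6% in NT Dongjin, and 59.2 and 75.6% in NT Nakdong leaves. The intron-retaining Os03t0670700-02 came second with 22.0 and 17.6% in OX, 30.3 and 32.9% in KD, 15.7 and 26.1% in NT Dongjin, and 32.4 and 18.9% in NT Nakdong leaves. For both transcripts 1 OX library lay within the range of the NT Nakdong libraries and 1 outside it, while both KD libraries lay outside the range of the NT Dongjin libraries.

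Neither transcript of OsGRP3 passed the test in either line. Shares were tested with limma on the log2 ratio of a transcript to the other transcripts of its gene, each with 0.1 FPKM added, over all 8 libraries with Benjamini-Hochberg adjustment. A transcript was called at an adjusted p under 0.05 with a difference of 10 points or more in mean share, and a gene was called when it had such a transcript. In OX against NT Nakdong leaves, Os03t0670700-04 differed by 8.03 points with a log2 ratio of 0.54 ± 0.42 (SE, adjusted p = 0.931). In KD against NT Dongjin leaves it differed by -11.7 points with a log2 ratio of -0.79 ± 0.42 (SE, adjusted p = 0.227), and the retained form Os03t0670700-02 by 10.7 points with a log2 ratio of 0.85 ± 0.46 (SE, adjusted p = 0.236). Os03t0670700-01 took 3.73 to 7.94% of the gene in all libraries. Without NT Nakdong replicate 1, the difference of Os03t0670700-04 between OX and NT Nakdong leaves was -0.13 points, so that library alone set its direction.

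**Figure D1:**
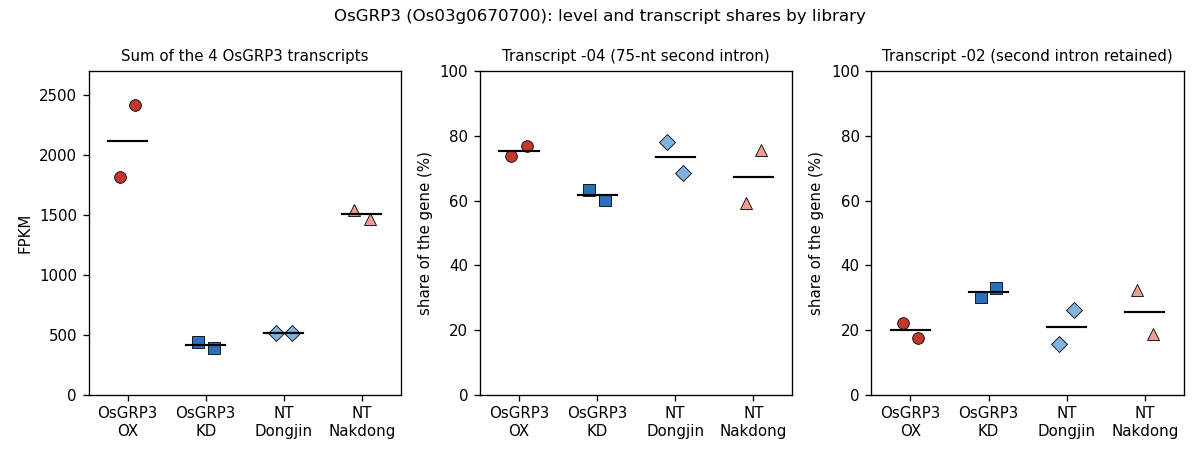
Summed FPKM of the 4 OsGRP3 transcripts (left) and shares in % of the gene of Os03t0670700-04 (middle) and Os03t0670700-02 (right) in the OsGRP3 OX, OsGRP3 KD, NT Dongjin and NT Nakdong groups. Points are libraries and bars are the means of 2. The level separates the OX libraries (1819.6 and 2421 FPKM) from the NT Nakdong libraries (1542 and 1468 FPKM), while their shares of Os03t0670700-04 overlap (73.8 and 77.0% against 59.2 and 75.6%).

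Among the members, 3354 genes had 2 transcripts, 779 had 3 and 233 had 4 or more, up to 7. Most genes were dominated by 1 transcript, with a median share of 84.9% for the most abundant one. That transcript held 90% or more of the gene in 1706 genes (39.1%) and under 60% in 651 genes (14.9%). The same transcript was the most abundant in all 8 libraries in 2883 genes (66.0%). Transcripts with a mean share of 5% or more, 8084 in number, were tested, and the other 1943 were not.

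The most abundant genes were photosynthetic. Their main transcripts held large and mostly even shares. Os12g0274700, a Rubisco small subunit gene, had 99.3% or more of its RNA in Os12t0274700-02 in every library, and Os08g0560900, photosystem I subunit II, had 99.2 to 99.5% in Os08t0560900-03. The light-harvesting gene Os01g0600900 had 81.6 to 86.9% in Os01t0600900-03, and Os03g0592500, another light-harvesting gene, had 50.7 to 72.3% in Os03t0592500-01. The Rubisco small subunit gene Os12g0291100 was divided between a spliced form of 896 bases, Os12t0291100-01, and a form of 281 bases that starts 716 bases downstream, Os12t0291100-03. The share of Os12t0291100-01 was 48.0 and 46.6% in OX, 39.0 and 37.5% in KD, 52.0 and 50.8% in NT Dongjin, and 45.6 and 47.0% in NT Nakdong leaves. The KD libraries were thus lower than all others. The difference was -13.1 points in KD against NT Dongjin leaves (limma, adjusted p = 0.00139) and, short of the 10 points required for a call, -8.06 points in KD against NT Nakdong leaves (adjusted p = 0.0468). The call against NT Dongjin was lost by edgeR and without the trend term.

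Replicate libraries of a group were themselves not identical in their shares. Between the 2 libraries of a group, 20.6% (OX), 21.0% (KD), 16.6% (NT Dongjin) and 19.3% (NT Nakdong) of the 10027 transcripts differed by 10 points or more. The OX and NT Nakdong libraries differed at nearly the same rate, with 20.5 to 20.9% of transcripts over the 4 pairs. The KD and NT Nakdong libraries differed in 19.2 to 22.7% and the OX and KD libraries in 21.3 to 22.5%. Pairs of an NT Dongjin library with a library of another group stood apart. They differed in 39.8 to 43.2% against KD libraries, 39.9 to 42.0% against OX libraries and 37.8 to 41.2% against NT Nakdong libraries.

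**Figure D2:**
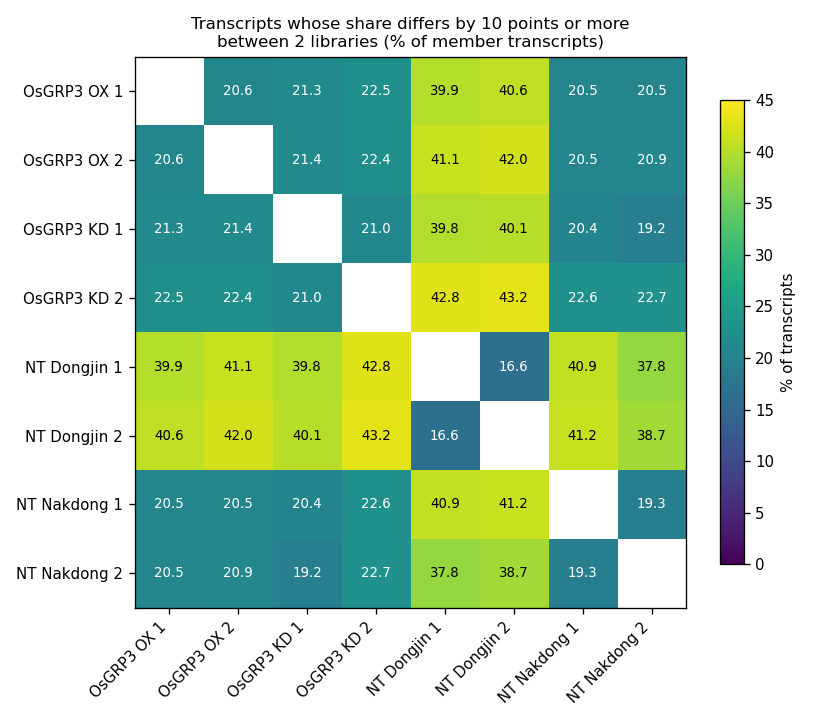
Percentage of the member transcripts whose share differs by 10 points or more between each pair of the 8 libraries, by color and number. Pairs of an NT Dongjin library with a library of any other group lie between 37.8 and 43.2%, and all other pairs between 16.6 and 22.7%.

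Coverage along transcripts set NT Dongjin apart as well. Among 2831 transcripts with 3 or more exons, the median log2 ratio of the coverage of the first exon to that of the last exon was -2.54 and -2.84 in OX, -2.57 and -2.89 in KD, -0.81 and -0.77 in NT Dongjin, and -2.84 and -2.57 in NT Nakdong leaves. In 3162 genes the longest and shortest transcripts differed in length by 200 bases or more. There the median share of the longest was 37.1 and 35.2% in OX, 35.0 and 34.6% in KD, 52.9 and 53.3% in NT Dongjin, and 34.2 and 38.8% in NT Nakdong leaves. NT Dongjin libraries thus had more coverage at 5′ ends than the other 6, and their median share of the longest transcript was higher. The same held for the transcript that starts farthest upstream in 2223 genes whose outermost starts were 200 bases or more apart. Its median share was 38.5 and 35.1% in OX, 34.5 and 32.0% in KD, 62.5 and 63.0% in NT Dongjin, and 33.0 and 40.2% in NT Nakdong leaves. Single genes did not all follow these medians. Where the paired transcripts differed in length by 200 bases or more, the longer gained in NT Dongjin against NT Nakdong leaves in 542 of 673 called genes (80.5%) and in 1466 of 2303 others (63.7%). Every comparison with NT Dongjin below carries this difference, and coverage and genotype cannot be told apart in those libraries.

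Leaf markers were high in every library, though in other proportions in NT Dongjin. The Rubisco small subunit and Rubisco activase genes fixed as mesophyll markers summed to 44667 to 51136 FPKM in OX, 48948 to 57661 FPKM in KD, 36364 to 37034 FPKM in NT Dongjin and 45893 to 49616 FPKM in NT Nakdong leaves. Within this sum, the small subunit genes Os12g0274700 and Os12g0291100 were lower in NT Dongjin (3654 to 3730 and 8836 to 9187 FPKM) than in the other 6 libraries (15907 to 19523 and 20831 to 31819 FPKM), while activase was higher (23316 to 23552 FPKM, against 5008 to 6271 FPKM). The meristem gene OSH1 was listed at 0 in all 8 libraries and the root gene RCc3 at 0 to 0.231 FPKM. The 9 B-type cyclin genes, which act in dividing cells, summed to 36.8 to 41.8 FPKM in OX, 52.2 to 59.3 FPKM in KD, 100.3 to 100.7 FPKM in NT Dongjin and 50.7 to 51.9 FPKM in NT Nakdong leaves. The 13 histone H4 genes, also of dividing cells, were instead lowest in NT Dongjin, at 787 to 817 FPKM in OX, 881 to 894 FPKM in KD, 714 to 719.7 FPKM in NT Dongjin and 755 to 824 FPKM in NT Nakdong leaves. In whole leaves, fewer cells of a type and less RNA per cell cannot be told apart, and the part of these levels in the shares was not tested.

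The comparison of OsGRP3 OX with NT Nakdong leaves asks which genes had other transcript shares in the overexpression line. Few did. Of 8084 transcripts 54 were called (0.668%), 25 with a higher and 29 with a lower share in OX leaves. They belonged to 29 of 4366 genes (0.664%). Within a gene, a gain of 1 transcript is a loss of the others, so the near-equal numbers follow from the measure. The differences were large where they occurred, with a median size of 74.4 points over the called transcripts, and 22 of the 29 genes had a transcript that differed by 50 points or more. At an unadjusted p under 0.05, 477 transcripts (5.90%) passed. Leaving out 1 library raised the number of called genes to 60 without OX replicate 1, 67 without OX replicate 2 and 44 without either NT Nakdong replicate. Without the other libraries in turn it was 26 to 29. Of the 29 genes, 22, 21, 19 and 20 were still called in the first 4 of these fits, in which the lone library of a group was assumed to vary like the other groups, and 21 to 24 were in the rest.

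In 12 of the 29 genes (41.4%), the transcript that gained most and the one that lost most had the same introns and differed only at their ends, against 27.1% of all member genes that could be compared. They differed by an alternative first exon in 10 (34.5%, against 39.4%) and by a retained intron in 7 (24.1%, against 20.6%). No called gene differed by a skipped exon. For each called gene, the transcript with the largest difference was also placed among all 8 libraries. The OX libraries lay outside the range of the other 6 in 14 genes, against 7.24% of all member genes, and the NT Nakdong libraries in 12, against 6.55%. In 9 genes, against 7.1% of all, the 4 libraries of both transgenic lines lay apart from the 4 of both NT groups. In 8 genes the OX and NT Dongjin libraries lay apart from the NT Nakdong and KD libraries. That pattern was not counted over all members, so the 8 cannot be set against a share of them. Lying apart means only that the libraries did not overlap, and the gap could be small. For Os07t0481000-01 the KD libraries were at 28.0 and 28.1% and the higher NT Dongjin library was at 26.6%. A call itself requires the OX and NT Nakdong libraries to differ, so these shares are given for scale only. The counts overlap, and none of the 29 genes was split by cultivar, against 4.51% of all member genes.

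The 12 genes with the largest differences are described in turn. Os02g0562700 encodes a protein similar to gamma hydroxybutyrate dehydrogenase, an enzyme that reduces succinic semialdehyde. Os02t0562700-01 (chr2:21344262-21348525) took 99.4 and 99.3% of the gene in OX, 99.3 and 99.4% in KD, 5.03 and 5.83% in NT Dongjin, and 7.04 and 8.47% in NT Nakdong leaves. Nearly all of the gene was thus assigned to this transcript in both transgenic lines, and most of it to the other in both NT groups. The difference in OX against NT Nakdong leaves was 91.6 points, with a log2 ratio of 10.62 ± 0.19 (SE, limma, adjusted p = 3.17e-05). The difference in KD against NT Dongjin leaves was 93.9 points (adjusted p = 7.9e-06). The other transcript, Os02t0562700-02, has the same 8 exons and starts 26 and ends 39 bases away. Reads from the shared sequence fit both transcripts, and StringTie divided them by its own model. The summed level of the gene was 113 and 117 FPKM in OX, 93.4 and 102.8 FPKM in KD, 142 and 143 FPKM in NT Dongjin, and 97.6 and 96.7 FPKM in NT Nakdong leaves.

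Os03g0376100 encodes a cystathionine gamma-synthase, which catalyzes the first committed step of methionine synthesis. Os03t0376100-01 took 96.3 and 96.0% of the gene in OX, 10.05 and 7.70% in KD, 96.8 and 95.6% in NT Dongjin, and 9.24 and 12.9% in NT Nakdong leaves. The lines therefore moved in opposite directions relative to their controls, with a difference of 85.1 points in OX against NT Nakdong leaves (adjusted p = 0.000431) and -87.3 points in KD against NT Dongjin leaves (adjusted p = 0.000148). Os03t0376100-02, which took the rest, is 850 bases long against 1334 and ends 371 bases away. Os01g0953600, an NADPH-dependent FMN reductase gene, behaved in part alike. Os01t0953600-01 took 99.2 and 99.1% in OX, 44.3 and 58.8% in KD, 99.1 and 99.0% in NT Dongjin, and 30.9 and 36.7% in NT Nakdong leaves. The difference in OX against NT Nakdong leaves was 65.4 points (adjusted p = 0.00109). Its partner Os01t0953600-02 has a last exon that reaches 2961 bases farther, and the gene itself stood at 58.8 and 57.2 FPKM in OX against 23.2 and 26.7 FPKM in NT Nakdong leaves.

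Another 3 genes differed in OX or in NT Nakdong leaves alone. For Os11g0704600, a gene similar to beta-1,3 glucanase, which cleaves callose, Os11t0704600-02 took 97.4 and 96.5% in OX, 97.3 and 98.0% in KD, 97.1 and 97.7% in NT Dongjin, and 0.034 and 0.014% in NT Nakdong leaves (difference 96.9 points in OX against NT Nakdong, adjusted p = 0.000291). For Os03g0140100, a cytochrome P450 gene, Os03t0140100-01 took 2.50 and 1.68% in OX, 98.1 and 97.3% in KD, 85.2 and 99.1% in NT Dongjin, and 97.9% in both NT Nakdong libraries (difference -95.8 points, adjusted p = 0.0258). The glucanase transcript was thus near 0 in NT Nakdong leaves alone and the P450 transcript in OX leaves alone. In both genes the paired transcripts had the same introns, with starts and ends less than 200 bases apart. How far the division of shared reads by StringTie set these shares was not tested. The P450 call was lost without either OX, either NT Nakdong or either KD replicate. Os11g0610900 encodes a seryl-tRNA synthetase, which charges a tRNA with serine. Os11t0610900-01 took 44.3 and 41.3% in OX, 99.6 and 100% in KD, 98.4 and 100% in NT Dongjin, and 100% in both NT Nakdong libraries (difference -57.2 points, adjusted p = 0.0124). The gaining transcript Os11t0610900-02 retains an intron and ends 514 bases away, and the call was lost without either NT Nakdong replicate, with 0.01 FPKM added in place of 0.1, and by edgeR.

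Os07g0562800 encodes a class VIII myosin, an actin-based motor. Os07t0562800-02, with 21 exons, took 0% in both OX libraries, 93.4 and 98.7% in KD, 2.23 and 1.55% in NT Dongjin, and 99.5 and 97.9% in NT Nakdong leaves (difference -98.7 points in OX against NT Nakdong, adjusted p = 0.00254). The short Os07t0562800-03, with 6 exons, starts 4485 bases downstream and gained in OX leaves. The Ras GTPase transcript Os03t0843100-01 took 99.4 and 99.7% in OX, 98.8 and 99.5% in KD, 99.7 and 99.9% in NT Dongjin, and 0.981 and 1.21% in NT Nakdong leaves (difference 98.4 points, adjusted p = 0.000247). Os08t0558600-01 of a synaptobrevin gene, whose product acts in vesicle fusion, took 1.87 and 1.60% in OX, 1.60 and 1.501% in KD, 2.27 and 1.19% in NT Dongjin, and 77.4 and 78.0% in NT Nakdong leaves (difference -76.0 points, adjusted p = 0.000839). In both of these genes the NT Nakdong libraries alone differed, and the paired transcripts start 74 and 41 bases apart.

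Os04g0584600 encodes a calcium-dependent protein kinase, a class of kinases that respond to calcium signals. Os04t0584600-02, which retains an intron that Os04t0584600-01 removes, took 45.6 and 23.5% in OX, 97.0 and 96.7% in KD, 65.7 and 69.7% in NT Dongjin, and 96.3 and 96.4% in NT Nakdong leaves. The spliced form therefore gained in OX leaves, with a difference of -61.8 points for the retained form (adjusted p = 0.0133), and this call was lost without either NT Nakdong, either NT Dongjin or the second KD replicate, and with only the 4 libraries of the comparison. EdgeR called the gene through Os04t0584600-01 (adjusted p = 0.0472). Os04g0654700 encodes subunit 5b of the COP9 signalosome, which removes NEDD8 from cullins. Os04t0654700-01 took 98.2 and 97.6% in OX, 2.32 and 3.59% in KD, 6.47 and 2.87% in NT Dongjin, and 5.74 and 0.034% in NT Nakdong leaves (difference 95.0 points, adjusted p = 0.0293). The OX libraries alone differed here, but the paired transcripts start only 23 and end 27 bases apart, and the call was lost without either OX, either KD or either NT Dongjin replicate, with 0.01 FPKM added, with only the 4 libraries of the comparison, and by edgeR. The last of the 12, Os12g0541200, encodes a conserved hypothetical protein from a single exon. Os12t0541200-01 took 0.119 and 0.008% in OX, 0.015 and 0.060% in KD, 0.371 and 0.234% in NT Dongjin, and 100% in both NT Nakdong libraries (difference -99.9 points, adjusted p = 4.34e-05), and the other transcript starts 40 bases downstream.

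**Figure D3:**
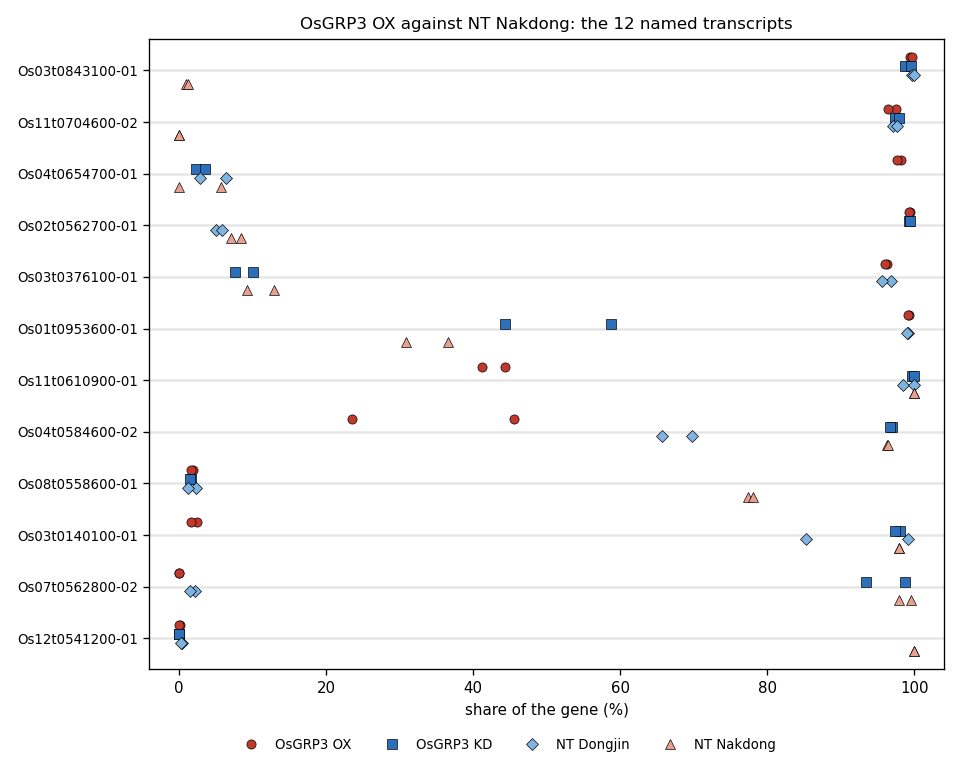
Shares in % of the gene (horizontal axis) of the 12 named transcripts of OsGRP3 OX against NT Nakdong in each library of the 4 groups, ordered by the difference. Each point is 1 library. Os02t0562700-01 separates both transgenic lines (99.3 to 99.4%) from both NT groups (5.03 to 8.47%), Os03t0843100-01 and Os11t0704600-02 are low in NT Nakdong leaves alone, and Os04t0654700-01 is high in OX leaves alone.

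Of the gene lists, protein kinases and genes related to kinases had 3 called genes of 263 (1.14%) in OX leaves, against 0.664% of all member genes. Besides Os04g0584600 these were Os07g0481000, a pollen-specific kinase partner, and Os07g0537000. Os07t0481000-01 took 91.9 and 94.3% in OX, 28.0 and 28.1% in KD, 20.5 and 26.6% in NT Dongjin, and 15.8 and 24.7% in NT Nakdong leaves (difference 72.8 points, adjusted p = 0.0142). Os07t0537000-01 took 100% in the OX, KD and NT Dongjin libraries and 60.2 and 72.9% in NT Nakdong leaves (difference 33.5 points in OX against NT Nakdong, adjusted p = 0.0111). Both of these calls were lost with only the 4 libraries of the comparison, the first also without NT Nakdong replicate 1 or NT Dongjin replicate 2 and the second also with 1 FPKM added. EdgeR likewise called 3 genes of the list, these 2 through the partner transcripts Os07t0481000-02 (adjusted p = 0.0213) and Os07t0537000-02 (adjusted p = 0.00339). Over all lists and other members, edgeR called 22 of the 3191 genes it tested. Of 35 genes for splicing factors 1 was called (2.86%). This was Os10g0118900, related to a tRNA-splicing endonuclease effector and so taken up by the keyword, and not a factor of mRNA splicing by that description. Os10t0118900-01 took 53.3 and 55.4% in OX, 15.4 and 16.4% in KD, 29.8 and 31.9% in NT Dongjin, and 14.3 and 18.8% in NT Nakdong leaves (difference 37.8 points, adjusted p = 0.0273). Its partner Os10t0118900-02 retains an intron, and the call was lost without any 1 of the 8 libraries, with only the 4 libraries of the comparison and by edgeR.

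No gene of the lists other than these was called by limma in OX against NT Nakdong leaves, nor by edgeR. At an unadjusted p under 0.05 with 10 points or more, 11 of 221 transcription factor genes, 1 of 53 other RNA-binding protein genes, 1 of 20 photosynthesis genes, 1 of 54 genes for redox and reactive oxygen enzymes, 1 of 5 clock genes and 0 of 58 ribosomal protein genes passed. For scale, 183 of all 4366 member genes passed by the same rule. The genes that the study singled out as OsGRP3 candidates held 2 members, OsGRP3 itself and Os10g0580900. Os10t0580900-02 took 93.3 to 97.4% of its gene in every library. In the list of redox enzymes the median of the largest difference per gene was 1.57 points, beside 2.23 points over all members.

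Some called genes outside the 12 were abundant or act in stress, and were chosen after their values were seen. In Os07g0448800, an aquaporin gene at 202 to 477 FPKM, Os07t0448800-01 took 99.9% in both OX, 99.9% in both KD and 100% in both NT Dongjin libraries, against 49.6 and 54.7% in NT Nakdong leaves (difference 47.8 points in OX against NT Nakdong). In Os05g0455500, similar to delta-1-pyrroline-5-carboxylate synthetase of proline synthesis, Os05t0455500-01 took 22.0 and 24.9% in OX, 1.78 and 2.17% in KD, 1.84 and 1.46% in NT Dongjin, and 1.77 and 1.60% in NT Nakdong leaves (difference 21.8 points, adjusted p = 0.00525). The aquaporin gene thus differed in NT Nakdong leaves alone and the proline synthesis gene in OX leaves alone. The call of the proline synthesis gene was lost by edgeR and with only the 4 libraries of the comparison, while edgeR called the aquaporin gene through Os07t0448800-02 (adjusted p = 1.6e-07).

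For OsGRP3 KD leaves the question was which transcripts differed from NT plants of the same cultivar, Dongjin. Here 1670 of 8084 transcripts (20.7%) in 893 of 4366 genes (20.5%) were called. Of these transcripts 840 had a higher and 830 a lower share in KD leaves, gains and losses again coming together within genes. In nearly all called genes it was NT Dongjin that stood apart. In 852 of the 893 genes (95.4%, against 46.7% of all member genes) the NT Dongjin libraries lay outside the range of the other 6, and in 173 genes the KD libraries did (10.3% of all). In 590 genes (66.1%, against 39.0% of all that could be compared) the changing transcripts differed by an alternative first exon, and in 660 their starts were 200 bases or more apart. The transcript that gained in KD leaves started upstream in 46 of these 660 (6.97%), and in 328 of 1374 genes that were not called (23.9%). With NT Dongjin replicate 2 left out 582 genes were called, and by edgeR's test on estimated counts 264.

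**Figure D4:**
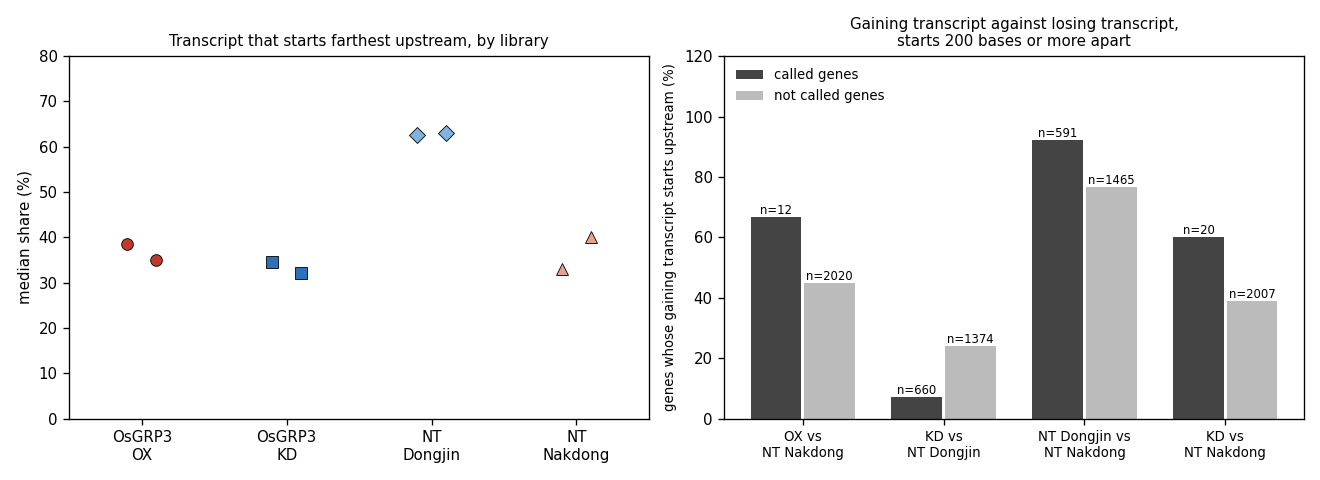
Left, median share in % of the transcript that starts farthest upstream over 2223 genes whose outermost starts are 200 bases or more apart, 1 point per library, with 62.5 and 63.0% in NT Dongjin and 32.0 to 40.2% in the other libraries. Right, percentage of genes in which the transcript that gained in the first-named group starts upstream of the one that lost, for genes whose starts are 200 bases or more apart (n above each bar, dark for called and light for other genes), with 6.97% of called genes in KD against NT Dongjin and 92.2% in NT Dongjin against NT Nakdong.

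The 8 transcripts with the largest differences showed the same order of groups, with a single exception. Changes between first exons accounted for 4 of them. For Os01g0767700, a DEIH-box helicase gene, the short Os01t0767700-03 took 97.3 and 98.4% in OX, 98.5 and 98.9% in KD, 0.046 and 0.192% in NT Dongjin, and 99.2 and 99.1% in NT Nakdong leaves (difference 98.6 points in KD against NT Dongjin, adjusted p = 9.31e-05). For Os01g0169500, an Armadillo-type protein gene, the long Os01t0169500-01 took 0.348 and 0.599% in OX, 0.396 and 0.428% in KD, 98.3 and 98.8% in NT Dongjin, and 0 and 0.822% in NT Nakdong leaves (difference -98.1 points, adjusted p = 0.000171). A protein prenyltransferase transcript, Os08t0305300-01, likewise held 99.5% in both NT Dongjin libraries and 0.301 to 5.16% elsewhere, and Os03t0715500-03 of a second Armadillo gene held 0.270 to 0.381% in NT Dongjin and 73.0 to 100% elsewhere.

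Another 3 differed only at their ends and also set NT Dongjin apart. Os11t0533500-01 of a retinoblastoma-related gene, a family that restrains the cell cycle, took 100% in all 6 other libraries and 0.308 and 1.47% in NT Dongjin leaves (difference 99.1 points in KD against NT Dongjin, adjusted p = 0.000214). Os04t0476500-01 of a MULE transposase domain gene took 100% in those 6 and 1.43 and 1.97% in NT Dongjin leaves. Os11t0242100-01 of a beta-glucosidase gene took 41.7 and 100% in OX leaves, 100% in both KD and both NT Nakdong libraries, and 0.552 and 0.192% in NT Dongjin leaves, and its call (adjusted p = 0.0118) was lost without the second KD or either NT Dongjin replicate and by edgeR. The exception was Os10g0462900, similar to mitochondrial chaperonin-60, which folds imported proteins. Os10t0462900-01 took 0.748 and 7.48% in OX, 100% in both KD libraries, 0.462 and 0.689% in NT Dongjin, and 7.99 and 5.79% in NT Nakdong leaves (difference 99.4 points in KD against NT Dongjin, adjusted p = 0.000737). Only the KD libraries stood apart there, and the other transcript starts 71 bases downstream.

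Clock genes had the highest share of calls among the lists. The core clock of plants couples morning-expressed MYB factors to evening genes through mutual repression. Of 5 clock genes that were members 3 were called in KD against NT Dongjin leaves (60%, against 20.5% of all members), and each of them was also called in NT Dongjin against NT Nakdong leaves. In Os08g0157600, the rice CCA1/LHY-type MYB gene, the full-length Os08t0157600-01 of 3236 bases took 15.6 and 14.5% in OX, 10.4 and 7.36% in KD, 96.0% in both NT Dongjin, and 13.4 and 14.0% in NT Nakdong leaves. Os08t0157600-02, of 1275 bases and starting 11155 bases downstream, took 84.0 and 85.0% in OX, 77.7 and 74.8% in KD, 0.031 and 0.025% in NT Dongjin, and 86.2 and 85.7% in NT Nakdong leaves. The 3′ form thus carried most of the RNA everywhere but in NT Dongjin leaves, with a difference of 76.2 points in KD against NT Dongjin leaves and a log2 ratio of 13.14 ± 0.15 (SE, adjusted p = 2.11e-06). The summed level of the gene moved with it. It was 89.8 and 103.3 FPKM in OX, 100.1 and 100.3 FPKM in KD, 1295 and 1290.8 FPKM in NT Dongjin, and 102 and 97.4 FPKM in NT Nakdong leaves.

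The pseudo-response regulator gene PRR73 (Os03g0284100), which represses morning genes, changed in the same sense and by less. Os03t0284100-01 took 10.52 and 10.3% in OX, 9.93 and 9.26% in KD, 26.1 and 26.2% in NT Dongjin, and 9.97 and 10.9% in NT Nakdong leaves (difference -16.6 points in KD against NT Dongjin, adjusted p = 0.000401). Os03t0284100-04, a single exon of 382 bases, took 76.5 and 76.9% in OX, 77.5 and 79.6% in KD, 57.2 and 58.5% in NT Dongjin, and 77.9 and 76.8% in NT Nakdong leaves. The third was the response regulator gene Os09g0532400. Os09t0532400-01 took 62.6 and 53.8% in OX, 63.3 and 63.1% in KD, 95.4 and 92.8% in NT Dongjin, and 70.5 and 70.9% in NT Nakdong leaves (difference -30.8 points, adjusted p = 0.00181). GIGANTEA (Os01g0182600), an evening gene, was not called, and its replicates differed widely in all groups but NT Dongjin, with replicate 1 the lower each time. Os01t0182600-01 took 43.3 and 99.1% in OX, 37.2 and 99.0% in KD, 90.05 and 88.8% in NT Dongjin, and 38.7 and 99.2% in NT Nakdong leaves. The remaining clock gene, Os07g0695100, had 99.3% or more of its RNA in Os07t0695100-01 in every library. EdgeR called 2 of the 5 genes, the MYB gene and Os09g0532400 (through Os09t0532400-02, adjusted p = 0.00013), and not PRR73. In KD against NT Dongjin leaves edgeR called 264 of the 3191 genes it tested.

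Against 20.5% of all members called in KD against NT Dongjin leaves, the lists held 68 of 263 kinase genes (25.9%), 12 of 53 other RNA-binding protein genes (22.6%), 4 of 20 photosynthesis genes (20%), 39 of 221 transcription factor genes (17.6%), 4 of 35 splicing factor genes (11.4%), 6 of 54 redox genes (11.1%) and 4 of 58 ribosomal protein genes (6.9%). Examples repeat the order of the groups. Os05t0169100-01 of ribosomal protein L10 took 25.1 and 22.6% in OX, 21.0 and 20.5% in KD, 99.9% in both NT Dongjin, and 22.4 and 23.1% in NT Nakdong leaves (difference -79.1 points in KD against NT Dongjin, adjusted p = 2.11e-06), and the shorter partner starts 1050 bases downstream. Os02t0523500-01 of a Tudor domain protein, an RNA-binding nuclease homologue, took 11.5 and 10.501% in OX, 10.02 and 8.60% in KD, 49.3 and 40.2% in NT Dongjin, and 9.20 and 12.3% in NT Nakdong leaves (difference -35.4 points, adjusted p = 0.00248). Os06t0608300-01 of a small nuclear ribonucleoprotein component took 2.52 and 1.89% in KD against 20.1 and 18.9% in NT Dongjin leaves (difference -17.3 points, adjusted p = 0.00416). In each of these the NT Dongjin libraries alone were high, and edgeR kept the call for ribosomal protein L10 but not for the Tudor and ribonucleoprotein transcripts. Os10t0109300-01 of a peroxidase gene took 0.418 and 0.869% in KD against 98.9 and 95.7% in NT Dongjin leaves, and here the gene itself was at 99.2 and 70.8 FPKM in KD against 2.64 and 2.85 FPKM in NT Dongjin leaves.

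In a poly(A)-binding protein gene, Os08g0314800, 1 OX replicate departed from the other. Os08t0314800-03 took 92.5 and 22.0% in OX, 92.8 and 93.9% in KD, 2.65 and 1.96% in NT Dongjin, and 93.9 and 91.7% in NT Nakdong leaves (difference 91.1 points in KD against NT Dongjin, adjusted p = 0.0165). The call was lost without either KD or either NT Dongjin replicate. A glycine-rich RNA-binding relative of OsGRP3, Os07g0187300, did likewise in KD leaves. Os07t0187300-01 took 8.42 and 9.78% in OX, 98.8 and 23.98% in KD, 22.9 and 20.8% in NT Dongjin, and 10.6 and 11.9% in NT Nakdong leaves, and it was called in no comparison. Transcript shares differed by 80 points or more between the 2 libraries of a group in 147 genes in OX, 131 in KD, 75 in NT Dongjin and 127 in NT Nakdong leaves.

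Rubisco activase (Os11g0707000), which reopens inhibited Rubisco sites and is known for alternative splicing, was steady outside NT Dongjin. Os11t0707000-02 took 6.17 and 6.31% in OX, 6.54 and 5.10% in KD, 13.5 and 12.4% in NT Dongjin, and 6.21 and 6.52% in NT Nakdong leaves. Its difference in KD against NT Dongjin leaves was -7.12 points (adjusted p = 0.00283), which is under the 10 points required for a call. The gene summed to 5008 to 5094 FPKM in KD against 23316 to 23552 FPKM in NT Dongjin leaves.

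NT Dongjin and NT Nakdong leaves differ by cultivar in the labels and by coverage in the files. In NT Dongjin against NT Nakdong leaves 1469 transcripts (18.2%) in 792 genes (18.1%) were called, and NT Dongjin lay apart from the other 6 libraries in 750 (94.7%, against 46.9% of all member genes). The transcript that gained in NT Dongjin leaves started upstream in 545 of 591 genes with starts 200 bases or more apart (92.2%), and in 1121 of 1465 genes that were not called (76.5%). A pattern that followed the cultivar in all 8 libraries, with the 4 Dongjin-background libraries on one side and the 4 Nakdong-background libraries on the other, was seen in 65 called genes (4.63% of all member genes had it). Leaving out 1 library left 466 genes without NT Nakdong replicate 1 and 517 and 525 without NT Dongjin replicates 1 and 2, and edgeR called 219. The lists held 62 called genes of 263 for kinases (23.6%), 11 of 53 for other RNA-binding proteins (20.8%), 3 of 20 for photosynthesis (15%), 35 of 221 for transcription factors (15.8%), 4 of 35 for splicing factors (11.4%), 4 of 54 for redox enzymes (7.41%) and 4 of 58 for ribosomal proteins (6.9%).

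OsGRP3 KD and NT Nakdong leaves differ by both genotype and cultivar, but their libraries had similar coverage along transcripts. In this comparison 68 transcripts (0.841%) in 34 genes (0.779%) were called, with 90 genes without KD replicate 1. Among these genes 15 were split by cultivar (4.63% of all member genes), NT Nakdong lay apart from the other 6 libraries in 15 (6.57% of all), and KD did in 13 (10.7% of all). Both comparisons share the NT Nakdong libraries, and 5 of the 8 transcripts with the largest differences were described for OX leaves. These were the transcripts of Os12g0541200, Os03g0843100, Os11g0704600, Os02g0562700 and Os08g0558600. Of the lists, 1 transcription factor gene of 221 and 1 kinase gene of 263 were called, and none of the other lists by limma. At an unadjusted p under 0.05 with 10 points or more, 2 of 53 other RNA-binding protein genes and 2 of 20 photosynthesis genes passed and none of the splicing factor, redox, ribosomal protein or clock genes, and edgeR called 1 RNA-binding protein gene. For scale, 195 of all 4366 member genes passed by that unadjusted rule, and edgeR called 27 of the 3191 genes it tested.

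The other 3 separated by cultivar or set KD leaves apart. Os08g0440300 encodes a CAF1-family ribonuclease, whose relatives shorten poly(A) tails. Os08t0440300-04 took 100% in both OX libraries, 0.162 and 0.207% in KD, 0.182 and 0.387% in NT Dongjin, and 100% in both NT Nakdong libraries. The difference was -99.8 points in KD against NT Nakdong leaves (adjusted p = 0.000145) and -99.7 points in NT Dongjin against NT Nakdong leaves (adjusted p = 6.08e-05). The shares thus divided by cultivar without exception, and the gene level divided with them, at 7.19 and 7.38 FPKM in OX, 29.1 and 23.0 FPKM in KD, 27.9 and 25.1 FPKM in NT Dongjin, and 6.82 and 9.65 FPKM in NT Nakdong leaves. The beta-amylase gene Os07g0495900, of starch breakdown, stood apart in KD leaves. Os07t0495900-03 took 10.4 and 11.04% in OX, 91.7 and 92.4% in KD, 2.36 and 1.95% in NT Dongjin, and 10.7 and 25.5% in NT Nakdong leaves (difference 73.9 points in KD against NT Nakdong, adjusted p = 0.0106, and 89.9 points in KD against NT Dongjin, adjusted p = 0.000539). The chaperonin-60 transcript Os10t0462900-01 differed by 93.1 points in KD against NT Nakdong leaves (adjusted p = 0.00761). The calls of the beta-amylase and chaperonin transcripts against NT Nakdong were lost without KD replicate 2, and that of the beta-amylase transcript also with only the 4 libraries of the comparison. EdgeR called both genes through other transcripts, Os07t0495900-02 (adjusted p = 4.68e-06) and Os10t0462900-02 (adjusted p = 0.000433).

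**Figure D5:**
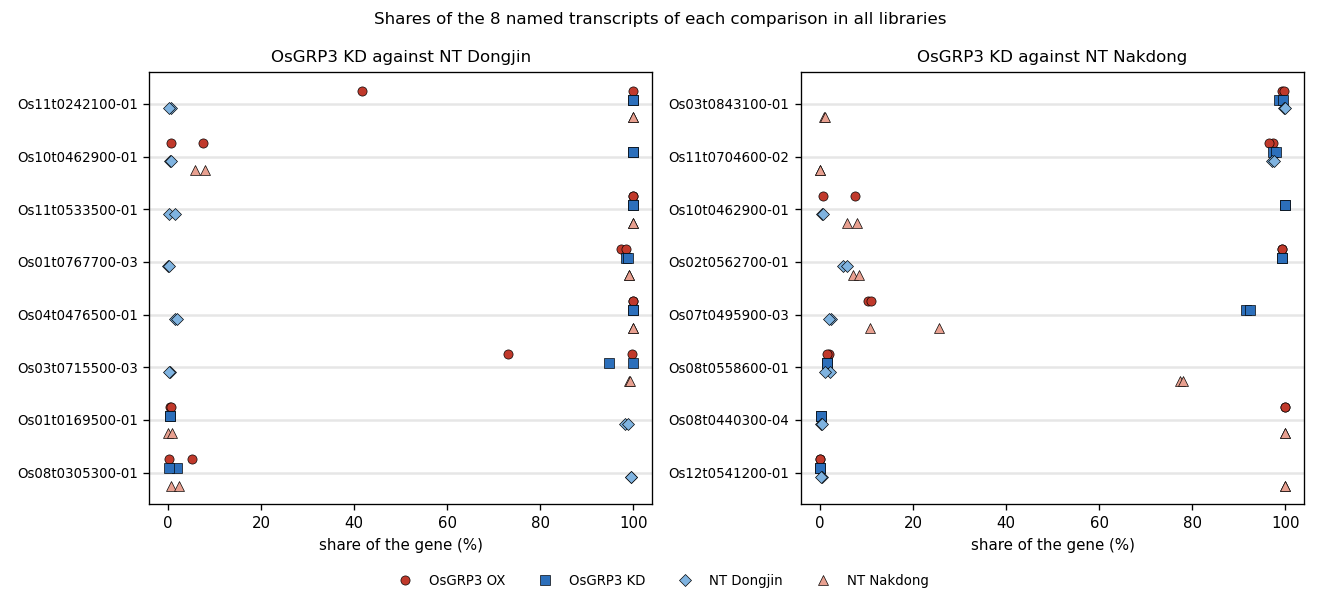
Shares in % of the gene (horizontal axes) of the 8 named transcripts of OsGRP3 KD against NT Dongjin (left) and of OsGRP3 KD against NT Nakdong (right) in each library of the 4 groups, 1 point per library. On the left NT Dongjin stands alone in all but Os10t0462900-01. On the right Os08t0440300-04 divides the cultivars (0.162 to 0.387% in Dongjin-background and 100% in Nakdong-background leaves) and Os07t0495900-03 is high in KD leaves alone (91.7 and 92.4%).

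Intron retention was examined across 681 genes in which a transcript that retains an intron could be set beside its spliced form. The median share of the retaining form was 31.3 and 31.5% in OX, 29.8 and 30.7% in KD, 36.3 and 36.8% in NT Dongjin, and 30.1 and 31.2% in NT Nakdong leaves. The OX and KD medians thus lay close to those of NT Nakdong leaves, and NT Dongjin alone was higher. Among called genes that differed by a retained intron, the retaining form gained in 4 of 6 in OX against NT Nakdong leaves, in 30 of 115 in KD against NT Dongjin leaves (26.1%) and in 71 of 99 in NT Dongjin against NT Nakdong leaves (71.7%). Among genes not called, it gained in 432 of 847 (51.0%) in OX against NT Nakdong leaves. In KD against NT Dongjin leaves it gained in 299 of 747 genes not called (40.0%), and in NT Dongjin against NT Nakdong leaves in 471 of 759 (62.1%). An example is Os10g0115600, one of the called splicing factor genes, whose spliced form is described as similar to the U1-70K protein of the U1 snRNP and whose retaining form as a hypothetical conserved gene. The retaining Os10t0115600-01 took 36.5 and 36.8% in OX, 26.6 and 35.6% in KD, 60.3 and 58.1% in NT Dongjin, and 29.96 and 34.2% in NT Nakdong leaves (difference -28.1 points in KD against NT Dongjin, adjusted p = 0.00695), a call that edgeR did not make.

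Changes in which transcript was the most abundant followed the same ranking. Among genes whose most abundant transcript was the same in both libraries of each group, it differed between OX and NT Nakdong leaves in 90 of 3614 genes (2.49%), between KD and NT Dongjin leaves in 416 of 3547 (11.7%), between NT Dongjin and NT Nakdong leaves in 353 of 3602 (9.80%) and between KD and NT Nakdong leaves in 98 of 3597 (2.72%). The 2 libraries of 1 group disagreed in the most abundant transcript in 498 genes in OX (11.4%) and 509 in KD (11.7%). They did in 407 genes in NT Dongjin (9.32%) and 440 in NT Nakdong leaves (10.1%). These shares are of all 4366 genes. The rates between groups leave out genes whose replicates disagreed, so the 2 kinds of rate are not on a like scale.

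Whether the overexpression and knockdown lines changed shares differently from their own controls was tested as the difference of the differences. It was called in 975 transcripts (12.1%) of 536 genes (12.3%), with 331 genes without NT Nakdong replicate 1, 338 and 343 without NT Dongjin replicates 1 and 2, and 118 by edgeR. This contrast includes the NT Dongjin libraries and their coverage. For OsGRP3 itself no transcript was called in it.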

How the data were processed

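RNA-seq of 8 rice leaf libraries was analysed, 2 in each of 4 groups taken from the sample labels. The authors aligned reads of 101 bases to IRGSP-1.0. The deposited file headers show HISAT alignments and StringTie 1.3.4d restricted to annotated transcripts, the processing notes name HISAT 2, Bowtie 2 and StringTie, and the paper's methods name TopHat. The labels give a strand-specific library kit and the methods a kit without strand. The authors' gene table holds estimated counts, FPKM and TPM, and TPM was not used. The deposited transcript records hold the coverage and FPKM of each transcript, stored as attribute text, and StringTie divides reads that fit several transcripts by its own model. Whole-series totals were 25836946 to 38940899 estimated counts, and these limit counting error only.

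The share was transcript FPKM over the FPKM of its gene. Log2 ratios with 0.1 FPKM added were fitted for transcripts of mean share 5% or more with limma 3.58.1 (R 4.3.3), as 4 group means with 4 residual degrees of freedom, robust and with the gene level as trend. P-values were Benjamini-Hochberg adjusted over all 8084 transcripts tested. The script was tested on simulated data. Alternatives were edgeR 4.0.16 (diffSpliceDGE on rounded estimated counts), other pseudocounts, filters, scales and sample sets, a replicate term and leaving out each library. Same-numbered libraries did not deviate together (r = -0.002 in Nakdong and -0.03 in Dongjin libraries across transcripts), so replicate numbers were not treated as pairs.

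Named transcripts were those of OsGRP3 and the study's candidates, the 12 (OX against NT Nakdong) or 8 (other comparisons) called genes with the largest difference at 5 FPKM or more in every library and no overlap between groups, up to 5 called genes per list, and the 5 most abundant genes. Members and lists were chosen with earlier results of these data known. Retained introns, ends and exon coverage were read from the deposited coordinates; first and last exons were compared for transcripts with coverage of 5 or more, with 0.5 added. Region sequences were not used here.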

Additional observations from a re-analysis of the deposited data

Results flagged for a closer look

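The change of shares in OsGRP3 OX against NT Nakdong leaves and that in OsGRP3 KD against NT Dongjin leaves differed in 536 genes by a test of the difference itself (limma, Benjamini-Hochberg adjusted). This test includes the NT Dongjin libraries, whose first-to-last-exon coverage differed from that of the other 6 (median log2 ratio -0.81 and -0.77, against -2.89 to -2.54), and the part of this coverage was not tested. Of the 12 transcripts named for OX leaves, 11 differed in this way. These 12 were chosen for their large difference in OX against NT Nakdong leaves, which is itself a term of this test. The count of 11 therefore follows largely from the choice and does not show that OX and KD leaves diverged. The values below are the difference in share in OX minus NT Nakdong leaves less that in KD minus NT Dongjin leaves, so that they can exceed 100 points where the lines moved oppositely.

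The differences that exceeded 100 points in size were the following. The myosin transcript Os07t0562800-02 had -192.9 points (adjusted p = 0.000678) and the cystathionine gamma-synthase transcript Os03t0376100-01 had 172.4 points (adjusted p = 5.99e-05). The FMN reductase transcript Os01t0953600-01 had 112.9 points (adjusted p = 0.000223) and the cytochrome P450 transcript Os03t0140100-01 had -101.4 points (adjusted p = 0.0109). In the last of these, KD and NT Dongjin leaves differed by 5.54 points (adjusted p = 0.515), and in the first 3 both lines were called against their controls.

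The others were changes in OX against NT Nakdong leaves with little or smaller change in KD against NT Dongjin leaves. For Os12t0541200-01 and the Ras GTPase, glucanase and synaptobrevin transcripts, the NT Nakdong libraries alone differed. The shares of these transcripts were similar in OX, KD and NT Dongjin leaves. Os12t0541200-01 had -99.7 points (adjusted p = 0.000215), the Ras GTPase transcript Os03t0843100-01 had 99.1 points (adjusted p = 0.000382), the COP9 subunit transcript Os04t0654700-01 had 96.7 points (adjusted p = 0.0138) and the glucanase transcript Os11t0704600-02 had 96.7 points (adjusted p = 0.000586). The calcium-dependent kinase transcript Os04t0584600-02 had -90.9 points (adjusted p = 0.00216), the synaptobrevin transcript Os08t0558600-01 had -75.8 points (adjusted p = 0.00124) and the seryl-tRNA synthetase transcript Os11t0610900-01 had -57.8 points (adjusted p = 0.00734). The gamma hydroxybutyrate dehydrogenase transcript Os02t0562700-01 was not among them, with -2.34 points (adjusted p = 0.23).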

How the results depend on the processing

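With 2 libraries a group and 4 residual degrees of freedom, counts of calls moved with the fit. Counts are given for OX against NT Nakdong, KD against NT Dongjin, NT Dongjin against NT Nakdong, KD against NT Nakdong and the difference of effects, in that order. With a replicate block within each cultivar, 8, 471, 142, 4 and 52 genes were called (14, 855, 242 and 7 transcripts without the last), and 8 of the 29 genes called in OX leaves remained. Of the 12 named OX transcripts 6 remained, and those of Os01g0953600, Os03g0140100, Os04g0584600, Os04g0654700, Os07g0562800 and Os11g0610900 were lost with this block. By edgeR, 264, 219 and 118 genes were called in KD against NT Dongjin, NT Dongjin against NT Nakdong and the difference of effects, and 33, 313, 268 and 35 transcripts in the first 4. Leaving out 1 library gave 26 to 67, 582 to 858, 466 to 744, 36 to 90 and 331 to 521 genes, and 48 to 121, 1071 to 1610, 846 to 1391 and 68 to 166 transcripts in the first 4. At a gene level of 5 FPKM or more, which tests fewer genes, 19 genes were called in OX against NT Nakdong and 21 (42 transcripts) in KD against NT Nakdong, and the most abundant transcript switched in 58, 277 and 53 genes in OX against NT Nakdong, KD against NT Dongjin and KD against NT Nakdong. At that level the median share of the longest transcript was 31.8% in OX, 29.98% in KD, 51.5% in NT Dongjin and 31.7% in NT Nakdong leaves. With transcripts of the same introns summed, only genes with 2 or more different sets of introns were tested. Then 18 genes (32 sets) in OX against NT Nakdong and 21 (42) in KD against NT Nakdong were called. These included all 18 of the OX genes that could be tested. Fitted on only the 4 libraries of the comparison, 14 of the 29 OX genes remained. Leaving out 1 library gave OX differences of -0.13 to 16.2 points for Os03t0670700-04 and -12.6 to 0.96 points for Os03t0670700-02, reversed without NT Nakdong replicate 1 alone. The cause of these changes was not tested.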
